A study of Mus musculus with 13 samples.

Results

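The genes described here are 44 genes of mitosis and cytokinesis, given as a list of symbols. They comprised 12 kinases and cyclins, with the phosphatases that activate them, 10 mitotic kinesins, 7 other proteins that bind spindle microtubules, 5 cytokinesis genes, 5 chromosomal passenger and chromosome genes, 3 genes of anaphase proteolysis and 2 transcription factors. All 44 were among the 16382 genes of the deposited tables, and all 44 passed the filter on low counts, which left 13142 genes. The lowest estimated count of any of them in any library was 23, for Kif14 in CON 3.

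RNA-seq was performed on myotubes of C2C12, a wild-type mouse myoblast line whose cells fuse into multinucleated myotubes in low-serum medium. Cultures at day 8 of differentiation received either 10 µM palmitoylethanolamide (PEA), a lipid amide made by animal cells, or dimethyl sulfoxide, the solvent control (CON), and were harvested 24 h later. There were 6 CON and 6 PEA libraries, made to ask how the transcriptome of differentiated myotubes responds to PEA. PEA 2 had 2 label entries, a run and a top-up, that name 1 set of values, and it entered as 1 library. The libraries were duplicate wells of 3 repeats of the experiment, the labels do not say which wells belong together, and p-values may therefore be too small. RNA was taken from whole wells, so any unfused myoblasts beside the myotubes would be included, and neither their number nor their share was measured in these samples.

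Libraries held 12354845 to 50397444 estimated counts with a median of 18420606, and CON 1 was the deepest. Values below are the authors' normalized counts, which are estimated counts divided by 1 factor per library. The myotube label was checked against 15 markers, all of which were measured, with Acta1 at a mean of 56797 normalized counts in CON and Myog, the differentiation factor, at 12261. The summed level of the myotube markers ranged from 5599.6 to 8842 CPM (counts scaled to a common library total) in CON and from 5865 to 6969 in PEA, that of 10 myoblast markers from 1142 to 1506 and from 1272 to 1444, and that of 6 fibroblast markers from 3136 to 4095 and from 3122 to 3710. Of 8 macrophage and endothelial markers in the tables only Cd68 passed the filter, Ptprc and Pecam1 had means of 0.32 and 3.53 normalized counts in CON, and the sum stayed between 3.97 and 8.10 CPM.

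Mitosis is driven by Cdk1 bound to cyclin B, which is switched on by Cdc25 phosphatases and works with the Polo and Aurora kinases to condense chromosomes and build the spindle. Kinesins slide, shorten and bundle spindle microtubules and carry chromosomes, and separase then cuts cohesin once the anaphase-promoting complex has marked securin and cyclin B for destruction. A central spindle and an actin ring divide the cell, and many of these genes are transcribed together late in the cell cycle through CCAAT boxes and the cell cycle genes homology region (CHR), to which the MuvB complex binds with B-Myb (Mybl2) and Foxm1. Fused myotubes have left the cell cycle for good, whereas unfused myoblasts can still divide.

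Of the 44 genes, 42 were significantly upregulated in PEA compared with CON, none was downregulated, and 2 (Cdc25b and Ube2c) did not pass the test. The test was edgeR's quasi-likelihood test with Benjamini-Hochberg adjustment over all 13142 genes and a threshold of 0.05, by which 6.31% of all genes tested were called higher and 4.74% lower. All 44 log2 fold changes were above 0, and DESeq2 and limma-voom called 41 and 42 of the genes higher and 0 lower. Over all genes DESeq2 called 7.48% higher and 7.03% lower, and limma-voom 7.39% and 5%. Those counts take each well as a replicate. With libraries summed in pairs 3 numbers apart, 1 possible pairing of the duplicate wells, 25 of the 44 and 409 of all genes were called. With neighbouring numbers summed, 42 of the 44 and 1664 of all genes were called. With each library taken alone, 1452 of all genes were called, in both directions together. The median log2 fold change was 0.77 over the 44 genes and 0.01 over all genes tested, and the largest were those of Espl1 (1.10), Kif14 (1.05) and Mki67 (1.03). Together the 44 genes made up 621 to 1394 CPM of the CON libraries and 1455 to 1708 CPM of the PEA libraries. In RNA from whole wells, more dividing cells and more of these transcripts per cell cannot be told apart. Of 15 myotube markers 0 were called higher and 3 lower (Tnnt3, Mymx and Myh8), with a median log2 fold change of -0.21 (at an unadjusted p below 0.05, edgeR gave 0 higher and 8 lower, against 14.3% and 13.1% of all genes, and DESeq2 called 0 and 4), and their part in the result was not tested.

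**Figure D1:**
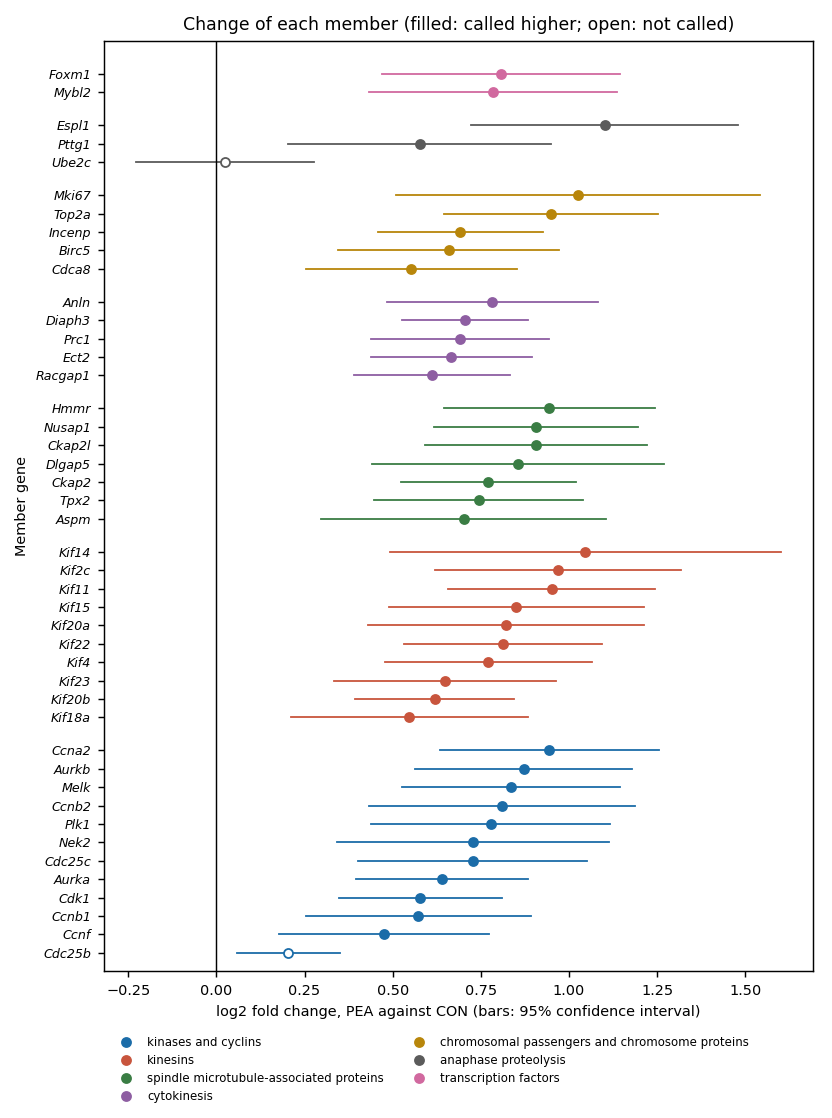
Points give the log2 fold change of PEA against CON for each of the 44 genes, grouped and coloured by class, with bars for the 95% confidence interval, and open points for genes that were not called. All intervals but that of Ube2c (-0.23 to 0.28) lie above 0.

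The promoters of these genes were searched for short sequences. The genes were not chosen by these sequences, but the CHR and the CCAAT box were already known from genes of this kind. The CHR letters TTTGAA, searched on both strands from 250 bases before to 50 bases after the annotated start of the canonical transcript (GENCODE, GRCm39), were found in 24 of 44 promoters (54.55%), against 13.47% of the 12143 promoters of protein-coding genes that were tested and 17.08% of 21770 promoters of all protein-coding genes. The CCAAT box, CCAAT or ATTGG, was found in 29 of 44 (65.91%, against 39.9%). A CHR, or its variant TTCGAA, stood together with a CCAAT box in 20 of 44 (45.45%, against 6.703%). The E2F letters TTTCCCGC or TTTGGCGC and the forkhead letters GTAAACA were found in 2 of 44 each (4.545%, against 2.858% and 2.602%). In the narrower window from 100 bases before the start the CHR was found in 20 of 44 (45.45%, against 4.752%). Matches to different letters may share a base, as a CHR and a CCAAT box do in Cdca8. A match is a description of the letters and no evidence of binding.

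The following stretches run from 120 bases before to 30 bases after the start on the strand of the gene, from the GRCm39 genome, with CHR letters, their variant and CCAAT boxes in capitals on either strand. The first 6 are the genes with the smallest p-value of their class among those with a CHR, Diaph3 had CCAAT boxes without a CHR, and Ube2c, chosen after its values were seen, had the smallest change of the 44 genes under PEA. The stretches are chr11:68936347-68936496 on the plus strand (Aurkb, ENSMUSG00000020897), chr19:37364679-37364828 on the plus strand (Kif11, ENSMUSG00000012443), chr11:40624251-40624400 on the minus strand (Hmmr, ENSMUSG00000020330), chr3:27208000-27208149 on the minus strand (Ect2, ENSMUSG00000027699), chr11:98915012-98915161 on the minus strand (Top2a, ENSMUSG00000020914), chr15:102204581-102204730 on the plus strand (Espl1, ENSMUSG00000058290), chr14:87378678-87378827 on the minus strand (Diaph3, ENSMUSG00000022021) and chr2:164611698-164611847 on the plus strand (Ube2c, ENSMUSG00000001403).
Aurkb: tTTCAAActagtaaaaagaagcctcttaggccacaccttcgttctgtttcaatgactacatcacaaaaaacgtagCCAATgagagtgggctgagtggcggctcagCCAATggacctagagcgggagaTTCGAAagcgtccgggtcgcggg
Kif11: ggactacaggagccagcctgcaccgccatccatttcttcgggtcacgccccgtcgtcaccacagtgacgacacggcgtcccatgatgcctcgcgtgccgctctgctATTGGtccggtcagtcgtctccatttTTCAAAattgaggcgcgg
Hmmr: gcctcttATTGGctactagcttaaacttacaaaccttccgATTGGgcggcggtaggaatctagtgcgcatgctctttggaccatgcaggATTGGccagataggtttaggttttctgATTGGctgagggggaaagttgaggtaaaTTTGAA
Ect2: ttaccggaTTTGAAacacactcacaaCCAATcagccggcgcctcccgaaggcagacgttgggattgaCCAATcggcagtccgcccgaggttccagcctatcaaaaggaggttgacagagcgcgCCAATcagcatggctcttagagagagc
Top2a: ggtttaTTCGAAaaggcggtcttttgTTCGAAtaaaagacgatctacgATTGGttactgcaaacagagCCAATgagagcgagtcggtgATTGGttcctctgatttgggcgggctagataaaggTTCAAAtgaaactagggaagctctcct
Espl1: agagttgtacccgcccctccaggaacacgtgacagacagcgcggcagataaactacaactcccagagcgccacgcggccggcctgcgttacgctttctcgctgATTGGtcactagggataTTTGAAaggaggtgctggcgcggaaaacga
Diaph3: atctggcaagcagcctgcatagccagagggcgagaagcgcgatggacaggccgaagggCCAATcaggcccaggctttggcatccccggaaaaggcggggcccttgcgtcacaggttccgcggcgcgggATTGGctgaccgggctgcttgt
Ube2c: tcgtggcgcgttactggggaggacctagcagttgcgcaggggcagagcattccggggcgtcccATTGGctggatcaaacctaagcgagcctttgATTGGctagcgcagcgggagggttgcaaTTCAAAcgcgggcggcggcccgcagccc
The CHR began 12 bases after the first transcribed base in Kif11, 24 after it in Hmmr, 3 after it in Top2a, 2 after it in Ube2c and on it in Espl1, each with a CCAAT box upstream, while the CHR shown for Ect2 lay upstream of 3 CCAAT boxes. In Aurkb a variant TTCGAA lay 7 bases after the first transcribed base, with 2 CCAAT boxes upstream of it.

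By class, the CHR was found in 6 of 12 kinases and cyclins, 6 of 10 kinesins, 3 of 7 spindle proteins, 4 of 5 cytokinesis genes, 2 of 5 chromosomal passenger and chromosome genes, all 3 genes of anaphase proteolysis and neither transcription factor. Of 30 further division genes 16 (53.33%) held it, and of 28 transport kinesins and light chains, a list that also held Kif2a, a relative of Kif2c, 2 (7.143%). Under PEA the median log2 fold change was 0.75 over the 24 genes with a CHR, of which 23 rose, and 0.78 over the 20 without it, of which 19 rose.

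**Figure D2:**
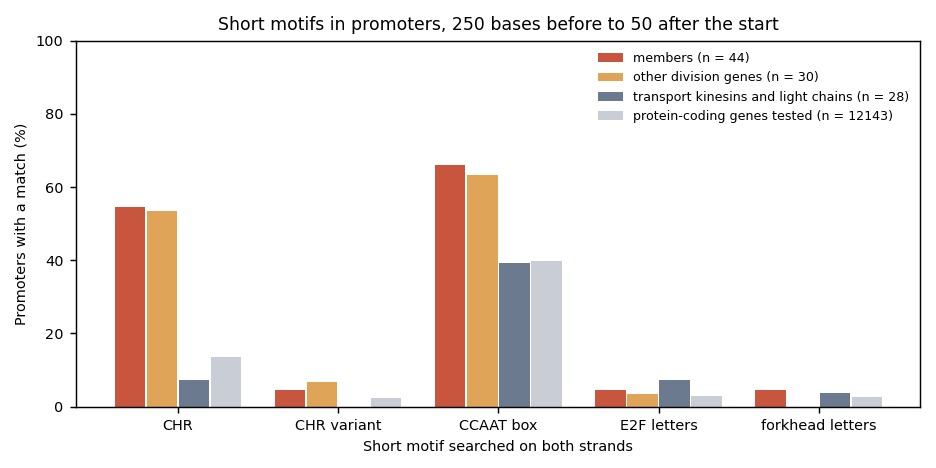
Bars give the share of promoters, in percent, that hold each short motif on either strand between 250 bases before and 50 after the start, for the 44 mitosis genes, 30 further division genes, 28 transport kinesins and light chains, and all 12143 protein-coding genes tested. The CHR bar stands at 54.55% for the mitosis genes and 13.47% for all genes tested, while the E2F and forkhead bars stay under 10% in every group.

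Within CON the genes rose and fell together from library to library. CON 2 was the highest CON library for 44 of 44 genes and CON 3 the lowest for 42, whereas in PEA the highest library was PEA 5 for 20 genes and PEA 6 for 16, and the lowest was PEA 2 for 20 and PEA 4 for 19. The highest CON library was a median of 2.31 times the lowest, against 1.28 times in PEA. The summed myotube and myoblast markers were lowest in CON 3 (5599.6 and 1142 CPM) and about level at the top between CON 2 (8842 and 1506 CPM) and CON 5 (8820 and 1490.2 CPM). CON 5 held the 44 genes at 978 CPM against 1394 in CON 2. The fibroblast markers were highest in CON 4. Their part in this spread was not tested. Every PEA library lay above every CON library in 23 of 44 genes, against 2.53% of all genes tested. Without CON 2 this held for 43 of 44 genes, all but Ube2c, against 5.52% of all genes.

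**Figure D3:**
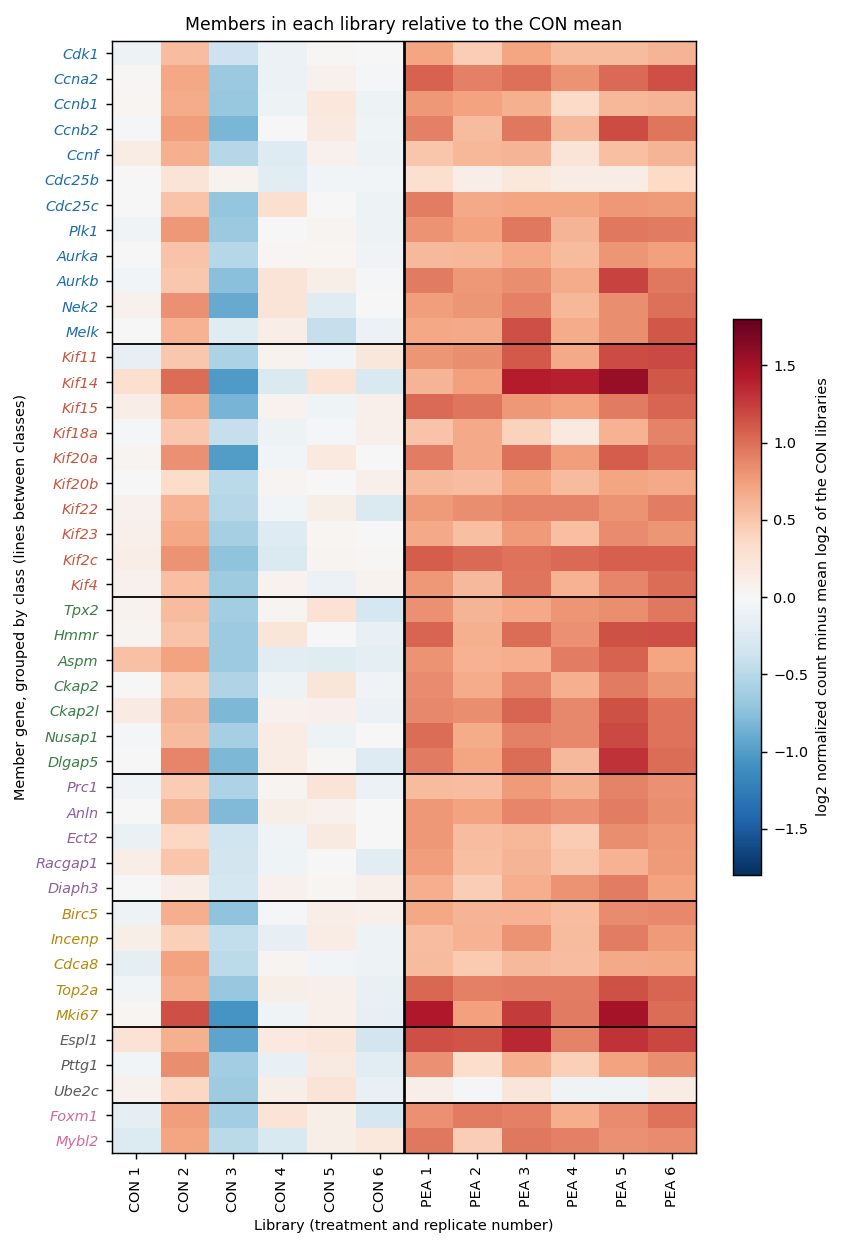
Each row is a gene, each column a library, and the colour is its log2 normalized count minus the mean log2 of the CON libraries, with lines between the classes and between CON and PEA. The CON 2 column is the only red CON column throughout and CON 3 is blue in nearly every row, while the 6 PEA columns are red in all rows but those of Cdc25b and Ube2c, which are pale.

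Among the kinases and cyclins, 11 of 12 rose, with a median log2 fold change of 0.73. With libraries summed in pairs 3 numbers apart, 6 of the 12 and 409 of all genes were called. Ccna2, the cyclin A that partners Cdk2 and then Cdk1, ranged from 402 to 1044 normalized counts over the CON libraries (median 641) and from 1128 to 1440.4 over the PEA libraries (median 1289.8). Its groups did not overlap, and it had the smallest p-value of the class (log2 fold change 0.94, SE 0.15, edgeR adjusted p = 0.00115). Annotated exons of Ccna2 overlap those of Exosc9 on the other strand, and the kit named in the labels (NEBNext Ultra II RNA) is not its directional version. Reads of the overlap cannot be assigned by strand, and its value is uncertain to that extent. Aurkb, the kinase of the chromosomal passenger complex, ranged from 178 to 417 normalized counts over the CON libraries (median 308) and from 476 to 697 over the PEA libraries (median 551), again without overlap (log2 fold change 0.87, SE 0.15, edgeR adjusted p = 0.00185). Melk, a kinase expressed in dividing and progenitor cells, ranged from 139.9 to 287 normalized counts over the CON libraries (median 179) and from 297 to 417 over the PEA libraries (median 318), also without overlap (log2 fold change 0.84, SE 0.15, edgeR adjusted p = 0.00279).

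Cdk1 itself, the kinase that starts mitosis, ranged from 763 to 1453 normalized counts over the CON libraries (median 962) and from 1350.0 to 1614 over the PEA libraries (median 1492). The groups overlapped through CON 2 alone, which at 1453 lay above PEA 2 at 1350.0 while the other CON libraries reached 1002, and Cdk1 rose (log2 fold change 0.58, SE 0.11, edgeR adjusted p = 0.00425). Its partner Ccnb1 (cyclin B1) had 190.0 to 484 normalized counts in CON (median 300.0) and 390.5 to 525 in PEA (median 472). The increase of Ccnb1 was called (log2 fold change 0.57, SE 0.15, edgeR adjusted p = 0.0242), but not without CON 6, PEA 2 or PEA 6, with adjusted p from 0.0502 to 0.0558. Plk1, the Polo kinase of the spindle poles and kinetochores, had 198 to 543 normalized counts in CON (median 309) and 482 to 612 in PEA (median 579). CON 2 lay above PEA 2 and PEA 4 and the other CON libraries below all of PEA (log2 fold change 0.78, SE 0.16, edgeR adjusted p = 0.00694).

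Of the remaining genes of the class, the cyclin Ccnb2 rose by 0.81 on the log2 scale, the phosphatase Cdc25c by 0.73, the centrosome kinase Nek2 by 0.73, the spindle pole kinase Aurka by 0.64 and Ccnf, the cyclin-like part of a ubiquitin ligase, by 0.48. Aurka shares exon sequence with Cstf1 and Fam210b on the other strand and is uncertain for that reason. The call of Ccnf (edgeR adjusted p = 0.0404) was lost on leaving out any library other than CON 2 or PEA 4, with adjusted p from 0.0539 without PEA 1 to 0.0856 without PEA 6. Its highest CON library, at 483 normalized counts, lay above every PEA library (at most 474). Cdc25b, which activates Cdk1 at the onset of mitosis, was the exception of the class at 518 to 693 normalized counts in CON (median 577) and 641 to 752 in PEA (median 660.5). Only CON 2 overlapped with PEA, the difference was small and did not pass the test (log2 fold change 0.20, SE 0.07, edgeR adjusted p = 0.0653, 95% confidence interval 0.06 to 0.35), and it passed without CON 2 (adjusted p = 0.0121).

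All 10 mitotic kinesins rose, with a median log2 fold change of 0.82 and no overlap between the groups for 6 of them. However, 6 of the 10 and 409 of all genes were called with libraries summed in pairs 3 numbers apart. At a threshold of 0.01, 6 of the 10 and 405 of all genes were called. Kif11, the motor that pushes the spindle poles apart, ranged from 172 to 357 normalized counts over the CON libraries (median 257) and from 409.8 to 579 over the PEA libraries (median 500.3). The highest CON library stayed below the lowest PEA library (log2 fold change 0.95, SE 0.14, edgeR adjusted p = 0.0008). Kif22, a motor bound to chromosome arms, ranged from 187 to 413 normalized counts over the CON libraries (median 269.8) and from 454 to 506 over the PEA libraries (median 485) (log2 fold change 0.81, SE 0.13, edgeR adjusted p = 0.00165). Kif2c, which depolymerises microtubules at kinetochores, ranged from 129.6 to 376 normalized counts over the CON libraries (median 220.4) and from 422 to 457 over the PEA libraries (median 445) (log2 fold change 0.97, SE 0.16, edgeR adjusted p = 0.00223). In neither did the groups overlap, and the 6 PEA libraries of Kif2c lay within 1.08 times of each other.

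Kif14, a motor of the midbody, had the largest change among the kinesins and the lowest level per length of the 44 genes. Its level was 5.87 normalized counts per kb of the canonical transcript in CON and 12.2 in PEA. It ranged from 23.7 to 96.6 normalized counts over the CON libraries (median 48.4) and from 73.5 to 142 over the PEA libraries (median 115), with CON 2 above PEA 1 and PEA 2 (log2 fold change 1.05, SE 0.26, edgeR adjusted p = 0.0189), and its call was lost without PEA 5 (adjusted p = 0.0522). The increases of the others were 0.85 on the log2 scale for Kif15, which assists Kif11, 0.82 for Kif20a and 0.65 for Kif23, motors of the central spindle, 0.77 for the chromosome motor Kif4, 0.62 for Kif20b, which acts in abscission, and 0.55 for Kif18a, which aligns chromosomes. Kif18a (edgeR adjusted p = 0.037) was no longer called without CON 1, 3, 4, 5 or 6 or without PEA 2, 5 or 6, with adjusted p from 0.059 to 0.0968. Exons of Kif20a overlap those of Brd8 and Cdc23 and exons of Kif4 those of Pdzd11, so both are uncertain.

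All 7 of the other spindle proteins rose as well, with a median log2 fold change of 0.86 and 5 of them without overlap. With libraries summed in pairs 3 numbers apart 4 of the 7 were called (409 of all genes), and Tpx2, Dlgap5 and Aspm were not. Hmmr, which localises to spindle poles, ranged from 193 to 437 normalized counts over the CON libraries (median 312) and from 475 to 680.0 over the PEA libraries (median 623) (log2 fold change 0.94, SE 0.14, edgeR adjusted p = 0.0009). Nusap1, which bundles spindle microtubules near chromatin, ranged from 189 to 424 normalized counts over the CON libraries (median 282) and from 455 to 652 over the PEA libraries (median 547) (log2 fold change 0.91, SE 0.14, edgeR adjusted p = 0.0009), and its exons overlap those of Oip5. Ckap2, a microtubule stabiliser, ranged from 439 to 892 normalized counts over the CON libraries (median 627) and from 996 to 1224 over the PEA libraries (median 1132) (log2 fold change 0.77, SE 0.12, edgeR adjusted p = 0.00102). None of the 3 showed overlap between CON and PEA. Increases were 0.91 for Ckap2l, 0.86 for Dlgap5, which stabilises kinetochore fibres, 0.74 for Tpx2, the activator of Aurora A, and 0.70 for Aspm, a pole protein. The call of Aspm (edgeR adjusted p = 0.0277) was lost without CON 5, CON 6, PEA 4, PEA 5 or PEA 6, with adjusted p from 0.0503 to 0.0701.

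All 5 cytokinesis genes rose, with a narrow span of log2 fold changes from 0.61 to 0.78, and in 4 of them the groups did not overlap. Diaph3, a formin that assembles actin filaments of the contractile ring, ranged from 331 to 449 normalized counts over the CON libraries (median 429) and from 562 to 784 over the PEA libraries (median 666). It had the smallest p-value of the 44 genes (log2 fold change 0.71, SE 0.08, edgeR adjusted p = 0.0003), and its CON libraries were the least spread of the class. Ect2, the exchange factor that activates RhoA at the equator, ranged from 186 to 309 normalized counts over the CON libraries (median 234) and from 328 to 425 over the PEA libraries (median 385) without overlap (log2 fold change 0.67, SE 0.11, edgeR adjusted p = 0.0016). Racgap1, the subunit of centralspindlin that recruits Ect2, ranged from 908 to 1616 normalized counts over the CON libraries (median 1109) and from 1612 to 1945 over the PEA libraries (median 1751), with CON 2 at 1616 just above PEA 4 at 1612 (log2 fold change 0.61, SE 0.10, edgeR adjusted p = 0.00236). The ring scaffold Anln rose by 0.78 and the microtubule bundler Prc1 by 0.69, and the exons of Prc1 overlap those of Rccd1.

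Set side by side, the median log2 fold change was 0.73 for kinases and cyclins, 0.82 for kinesins and 0.69 for cytokinesis genes. Within each PEA library the mean of the kinesins, relative to the CON mean, lay above that of the kinases and cyclins, by 0.13 ± 0.06 (SD, n = 6) on the log2 scale and by 0.03 to 0.20 in single libraries. The same difference spanned -0.12 to 0.06 in CON, so the ranges of CON and PEA overlapped. The mean of the cytokinesis genes minus that of the kinesins was -0.14 ± 0.05 (SD, n = 6) in PEA, with -0.20 to -0.07 in single libraries against -0.24 to 0.21 in CON. Cytokinesis genes and kinases and cyclins differed in PEA by -0.01 ± 0.07 (SD, n = 6). These are descriptions without a test, and the mean of the kinases and cyclins includes Cdc25b.

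**Figure D4:**
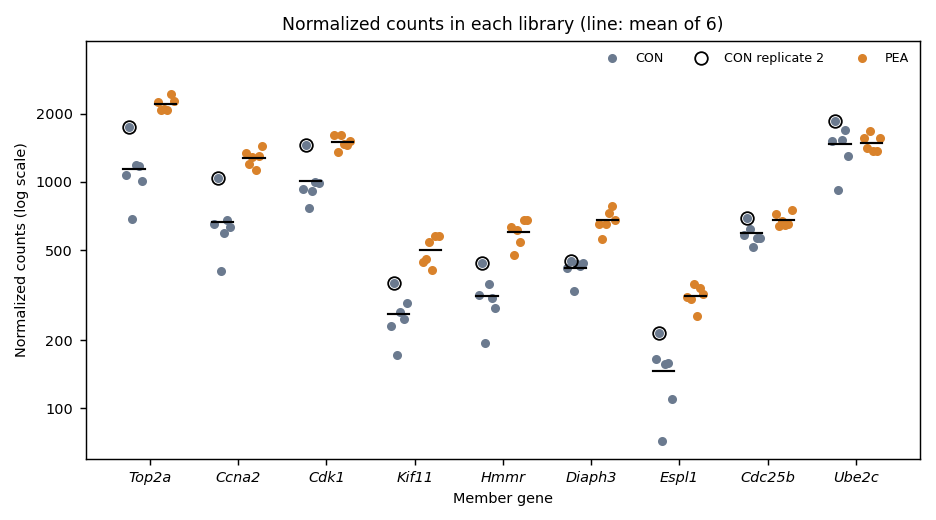
Points give the normalized counts of 9 of the genes in each of the 12 libraries on a log axis, with a line at the mean of the 6 libraries of each group and a ring around CON replicate 2. The ringed point is the highest CON value of every gene shown, and CON and PEA are apart in Top2a, Ccna2, Kif11, Hmmr, Diaph3 and Espl1 but not in Cdk1, Cdc25b or Ube2c.

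The 5 chromosomal passenger and chromosome genes rose, 2 of them without overlap. With libraries summed in pairs 3 numbers apart 3 of the 5 were called (409 of all genes), and Cdca8 and Mki67 were not. Top2a, the topoisomerase that untangles sister chromatids, ranged from 686 to 1754 normalized counts over the CON libraries (median 1120.0) and from 2070.2 to 2449.8 over the PEA libraries (median 2172) (log2 fold change 0.95, SE 0.14, edgeR adjusted p = 0.0009). Incenp, the scaffold of the passenger complex, ranged from 419.6 to 771 normalized counts over the CON libraries (median 577) and from 842 to 1079.6 over the PEA libraries (median 928) (log2 fold change 0.69, SE 0.11, edgeR adjusted p = 0.00145). Both stood apart between the groups. Birc5 (survivin), another passenger subunit, ranged from 258 to 671 normalized counts over the CON libraries (median 436) and from 631 to 782 over the PEA libraries (median 675), with CON 2 inside the range of PEA (log2 fold change 0.66, SE 0.15, edgeR adjusted p = 0.0111). Mki67, the Ki-67 protein that coats mitotic chromosomes and marks cycling cells, ranged from 209 to 983 normalized counts over the CON libraries (median 432) and from 729 to 1236 over the PEA libraries (median 963). Its CON 2 value of 983 lay above 3 of the PEA libraries while the other CON libraries stayed at or below 465 (log2 fold change 1.03, SE 0.24, edgeR adjusted p = 0.0149). The third passenger subunit, Cdca8 (borealin), rose by 0.55 (edgeR adjusted p = 0.0205), and the call was lost without PEA 5 or PEA 6, at an adjusted p of 0.05014 and 0.05135. Its highest CON library, at 553 normalized counts, lay above every PEA library (at most 541).

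The 3 genes of anaphase proteolysis differed from each other. Espl1 alone was called with libraries summed in pairs 3 numbers apart. Espl1, the separase that cleaves cohesin, had the largest fold change of the 44 genes and ranged from 72.0 to 216 normalized counts over the CON libraries (median 158) and from 256 to 354 over the PEA libraries (median 315). Its groups were apart (log2 fold change 1.10, SE 0.18, edgeR adjusted p = 0.0016). Pttg1, the securin that holds separase in check, had 194 to 534 normalized counts in CON (median 279) and 373 to 531 in PEA (median 478), with the highest CON library above every PEA library (log2 fold change 0.58, SE 0.18, edgeR adjusted p = 0.0451). The call of Pttg1 was lost on leaving out any library other than CON 2, with adjusted p from 0.0512 without PEA 2 to 0.10 without PEA 6, and DESeq2 did not call it (adjusted p = 0.0597).

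Ube2c, the ubiquitin-conjugating enzyme that supplies the anaphase-promoting complex, did not follow the other genes. It ranged from 917 to 1859 normalized counts over the CON libraries (median 1526) and from 1363 to 1672 over the PEA libraries (median 1486), and the PEA libraries lay within the range of CON. The difference was near 0 (log2 fold change 0.02, SE 0.12, edgeR adjusted p = 0.92), with a 95% confidence interval from -0.23 to 0.28, and it took the other sign without CON 3 (-0.08), CON 6 (-0.01) or PEA 3 (-0.01). In CON it still moved with the rest, since CON 2 was its highest and CON 3 its lowest library. Per length it was the most abundant of the 44 transcripts, at 1519.8 normalized counts per kb of the canonical transcript in CON and 1542 in PEA, followed by Birc5 at 453 and 712.

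Both transcription factors rose. Neither was called with libraries summed in pairs 3 numbers apart (adjusted p = 0.0504 for Foxm1 and 0.0521 for Mybl2). Foxm1, a forkhead factor of genes of G2 and mitosis, ranged from 272 to 699.8 normalized counts over the CON libraries (median 411) and from 654 to 823 over the PEA libraries (median 770.1) (log2 fold change 0.81, SE 0.16, edgeR adjusted p = 0.00561), and its exons overlap those of Rhno1 and Tex52. Mybl2 (B-Myb), the partner of MuvB, ranged from 92.6 to 214 normalized counts over the CON libraries (median 125) and from 177 to 251 over the PEA libraries (median 239) (log2 fold change 0.79, SE 0.17, edgeR adjusted p = 0.00817). In both genes 5 of 6 CON libraries lay below all PEA libraries, and CON 2 did not.

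Further genes of the same processes were read from other lists. Over all genes tested, edgeR called 6.31% higher and 4.74% lower at the adjusted threshold of 0.05. At an unadjusted p below 0.05 it gave 14.3% and 13.1%, and DESeq2 called 7.48% and 7.03%. The counts below stand against the shares by the same rule. Of 30 further division genes 25 were called higher and 0 lower, with a median log2 fold change of 0.70, led by p-value by the kinase Pbk (log2 fold change 0.84, SE 0.12, edgeR adjusted p = 0.0009), Mastl, the Greatwall kinase that restrains mitotic phosphatases (log2 fold change 0.86, SE 0.13, edgeR adjusted p = 0.0009), and Kifc1, a motor that focuses spindle poles (log2 fold change 0.95, SE 0.15, edgeR adjusted p = 0.00102). At an unadjusted p below 0.05 edgeR gave 28 higher and 0 lower, and DESeq2 called 26 and 0. Their summed level was 323 to 614 CPM in CON and 639 to 739 CPM in PEA, without overlap. The 5 that did not pass were Cks2 (0.27), Ckap5 (0.12), Cdkn3 (0.62), Depdc1a (0.61) and Sapcd2 (0.74), given as log2 fold changes.

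A list of 14 genes held the kinases that inhibit Cdk1, phosphatases that act at mitotic exit, and the phosphatase inhibitors Arpp19 and Ensa, and 1 of them was called higher and 3 lower (1 and 6 by edgeR at an unadjusted p below 0.05, 1 and 5 by DESeq2). Pkmyt1, the kinase that inhibits Cdk1 at membranes, rose (log2 fold change 0.85, SE 0.12, edgeR adjusted p = 0.0008), whereas Wee1, its nuclear counterpart, was not called (log2 fold change 0.06, SE 0.08, edgeR adjusted p = 0.682). The phosphatase subunits Ppp2r1a (-0.18), Ppp2r2a (-0.17) and Ppp1cc (-0.17) fell on the log2 scale. Of 18 genes of the anaphase-promoting complex and its regulators 2 were called higher and 0 lower, with a median of 0.02 (4 and 3 by edgeR at an unadjusted p below 0.05, 3 and 0 by DESeq2). These were the activator Cdc20 (log2 fold change 0.58, SE 0.14, edgeR adjusted p = 0.0182) and the inhibitor Fbxo5, also named Emi1 (log2 fold change 0.84, SE 0.14, edgeR adjusted p = 0.0016). Ube2s, which extends ubiquitin chains after Ube2c, was not called (log2 fold change 0.32, SE 0.11, edgeR adjusted p = 0.0675).

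Of 14 genes of the MuvB complex, the pocket proteins, their E2F and DP partners (E2f4, E2f5, Tfdp1 and Tfdp2) and the CCAAT-binding factor NF-Y, with Mybl1, 2 were called higher and 0 lower, with a median of 0.07 (5 and 2 by edgeR at an unadjusted p below 0.05, 2 and 0 by DESeq2). They were the pocket protein Rbl1 (log2 fold change 0.38, SE 0.07, edgeR adjusted p = 0.00492) and Mybl1, a relative of Mybl2 (log2 fold change 0.69, SE 0.14, edgeR adjusted p = 0.00559), and the next by p-value, Nfyb, was not called (log2 fold change 0.17, SE 0.06, edgeR adjusted p = 0.0557). Lin54 of the same list was not among the genes of the deposited tables. Among 25 transport kinesins and light chains that passed the filter 0 were called higher and 1 lower (Klc1, log2 fold change -0.17, SE 0.05, edgeR adjusted p = 0.0425), with a median of 0.06. The next by p-value, Kif21a (log2 fold change 0.21, SE 0.07, edgeR adjusted p = 0.0564) and Klc3 (log2 fold change 0.62, SE 0.26, edgeR adjusted p = 0.124), were not called. Kif2a, a relative of Kif2c that was also in this list, was not called (log2 fold change 0.07). At an unadjusted p below 0.05 edgeR gave 3 higher and 1 lower among the 25, DESeq2 called 1 and 1, and the summed levels overlapped, at 1543 to 1741 CPM in CON and 1608 to 1746 CPM in PEA. Of 26 genes of the general cortex and abscission machinery 0 were called higher and 6 lower, with a median of -0.04 (3 and 8 by edgeR at an unadjusted p below 0.05, 1 and 6 by DESeq2). The 6 were Septin9 (-0.23), Rhoa (-0.23), the target of Ect2, Tsg101 (-0.21), Chmp2a (-0.19), Chmp6 (-0.19) and Chmp3 (-0.15), given as log2 fold changes. Of the 9 myoblast markers tested, Cd34 (0.24) and Msc (0.62) were called higher and Cdh15 (-0.25) lower, given as log2 fold changes. The median of the 9 was -0.02 and the lowest was -0.37, in a gene that was not called. Over all genes edgeR called 6.31% higher and 4.74% lower. Of 5 fibroblast markers tested edgeR called 1 higher, Dcn (0.48), and 0 lower, and DESeq2 called 0 in either direction. The log2 fold changes of the others, not called, were 0.25 for Pdgfra, 0.23 for Col1a1, -0.12 for Col3a1 and -0.77 for Lum, and at an unadjusted p below 0.05 edgeR gave 2 of the 5 higher and 1 lower.

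**Figure D5:**
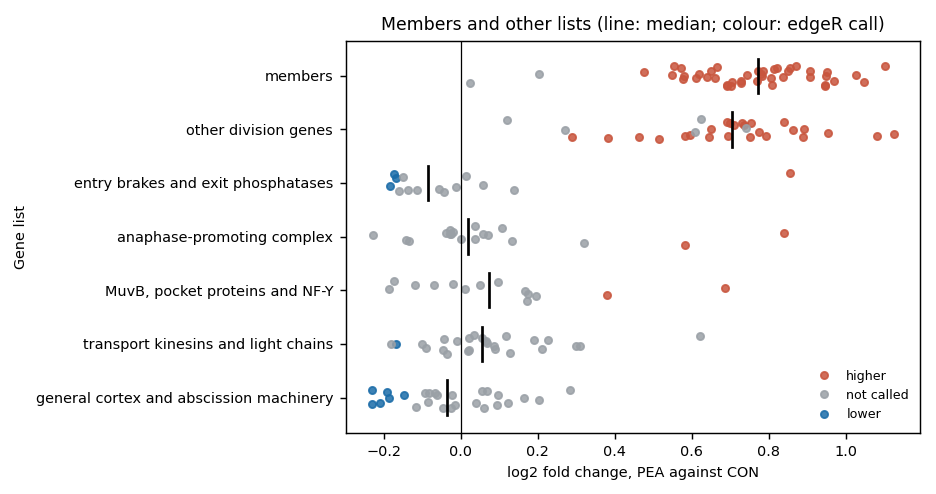
Points give the log2 fold change of PEA against CON of each gene tested, by list, coloured by the edgeR call, with a black line at the median of the list. The 44 mitosis genes (top, median 0.77) and the further division genes (median 0.70) lie mostly above 0.4, while the medians of the other 5 lists lie between -0.08 and 0.07.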

How the data were processed

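RNA-seq was performed on 12 libraries, 6 CON and 6 PEA, grouped by their labels. Per the submitters' processing notes and the methods, the authors aligned reads with STAR to mm39 and quantified them to genes in Partek by expectation maximisation. The first deposited table holds the estimated counts per gene, and the second deposited table the normalized signal, counts over 1 factor per library (DESeq2 median-ratio). Every gene of the tables had a total of at least 10, and 2240 protein-coding genes with identifiers beyond the end of the tables were not analysed here. Shared or antisense exons can move counts between genes. Estimated counts were rounded and tested in edgeR 4.0.16 (R 4.3.3, TMM, default filter on low counts, no covariates), which was tested on simulated data. SEs are the log2 fold change over the root of F. Symbols, starts and promoter sequence came from GENCODE and GRCm39, which named 16343 of 16382 identifiers. Python 3.11.15 made tables and figures.

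Per-library values were given for the 3 smallest p-values of each class, Cdk1, Ccnb1, Plk1, Aurkb, Mki67, Foxm1, Mybl2, genes not called, and the highest and lowest levels per length. Lists of other genes of the pathway are named by their 3 smallest p-values and by every gene called lower. Further names were chosen after their values were seen. The genes and lists were chosen with earlier results of these data known. Libraries held 12354845 to 50397444 estimated counts, and the errors given take in no more than counting noise and library-to-library spread. Alternatives were DESeq2 1.42.0, limma 3.58.1 (voom, and log2 of the normalized values plus 1), other scaling, filters and rounding, thinned counts, the replicate number as a block, a threshold of 0.01, libraries summed in pairs, each library left out, and, added after seeing the data, CON 2 and CON 3 left out together.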

Additional observations from a re-analysis of the deposited data

Results flagged for a closer look

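Of 92 groups of 6 values examined, 9 held a library that stood apart from the other 5 by more than 0.625 of the range of the group, where chance gives about 5% of groups. In CON, replicate 2 was far above the others for Cdk1 (1453 normalized counts, others up to 1002), Plk1 (542.6, others up to 325), Cdca8 (552.7, others up to 344) and Mki67 (983.1, others up to 465), and replicate 3 far below them for Diaph3 (331.2, others from 417). In PEA, replicate 4 was low for Ccnf (364.4, others from 437), replicate 2 low for Mybl2 (176.6, others from 231) and replicate 1 high for Cdc25c (177.5, others up to 160.1). CON replicate 1 was the deepest library, at 50397444 estimated counts against at most 19083862 in the other CON libraries. CON replicate 2 enters 4 of the 9, and all 4 genes rose with it and were called without it as well.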

How the results depend on the processing

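Over 1100 fits of the 44 genes under 25 alternatives, 1019 kept direction and call, 74 lost the call, 3 gained it and 4 changed sign, and 24 genes kept their call in every alternative. The sign changes were all of Ube2c, at -0.014 without CON 2 and CON 3 together and from -0.0799 (without CON 3) to 0.103 (without CON 2) on leaving out each library, also below 0 without CON 6 or PEA 3. At a threshold of 0.01, 405 of all genes and 6 kinesins were called, and 29 of the 44 genes. With libraries summed in pairs 3 numbers apart, an assumed pairing of wells, 409 of all genes, 25 of the 44 genes, 6 kinases and cyclins and 6 kinesins were called. With neighbouring numbers summed, 1664 of all genes and 42 of the 44 were called. The labels do not say which pairing holds, and the cause was not tested. Leaving out each library gave 778 (without PEA 6) to 2203 (without CON 2) calls over all genes, with 864 without CON 6, 906 without PEA 2, 963 without PEA 4 and 794 without PEA 5, and 36 to 43 calls over the 44 genes. DESeq2 called 1915 genes and 41 of the 44. Same-numbered libraries did not deviate together (correlations from -0.083 to 0.065), so the numbers were not taken to pair CON with PEA libraries, and the replicate block gave 1570 calls over all genes and 42 over the 44, with every call of the 44 unchanged. Kif14, whose estimated counts went down to 23, had the widest 95% confidence interval of the 44, 0.49 to 1.60, and that of Mki67, whose counts were 203 or more, was 0.51 to 1.54.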
